A study of Homo sapiens with 6 samples.

Results

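The defensin genes were followed through the H3K9me3 domains of a breast cancer line. Members were all autosomal protein-coding genes of GENCODE 44 (hg38) with a symbol of DEFA or DEFB followed by a number, which gave 46 of 19111 autosomal protein-coding genes. Of these, 6 were alpha defensin genes (DEFA) and 40 were beta defensin genes (DEFB). They lay on chromosome 8 (26 genes), chromosome 20 (13 genes), chromosome 6 (4 genes), chromosome 11 (2 genes) and chromosome 4 (1 gene). The study used chromatin immunoprecipitation followed by sequencing (ChIP-seq) to ask whether H3K9me3 domains change when a jammed epithelial monolayer becomes fluid. All libraries came from MCF10.DCIS.com, a human breast epithelial line that models ductal carcinoma in situ and, per the study, carries oncogenic H-RAS. Control cells were a stable line infected with the empty lentiviral vector pSLIK-neo-EV. RAB5A cells were a stable line infected with pSLIK-neo-RAB5A, a doxycycline-inducible construct for the endosomal GTPase RAB5A. Both lines therefore share the parental genome, the vector backbone and the selection. The RAB5A libraries are labelled as RAB5A overexpression, and the study describes the monolayers used for their ChIP-seq as expressing RAB5A. In each condition, 1 library was made with the antibody ab176916 (replicate 1) and 1 with ab8898 (replicate 2), so n = 2 per condition and 4 libraries in all. The 2 input libraries were not analysed here.

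Defensins are small cationic peptides, rich in cysteine, that disrupt microbial membranes. Alpha defensins are stored in neutrophil granules and in Paneth cells of the intestine, whereas beta defensins are made mainly by epithelia, with many of the DEFB genes known from the epididymis and testis. H3K9me3, trimethylation of lysine 9 on histone H3, marks constitutive heterochromatin and is known for covering repeat-rich and gene-family regions.

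The files used here were, for each library, a list of domains, broad regions called enriched for H3K9me3 over input, whose edges fall on multiples of 200 kb. The lists held 78, 76, 79 and 76 domains with the control libraries before the RAB5A libraries and, in each pair, ab176916 before ab8898, an order kept for all series of 4 values below. On autosomes they covered 201, 195.4, 201.4 and 198.2 Mb. The lists give no read counts, and the study states its sequencing depth as an average over samples, so the depth of each library was not used here. The lists hold no expression, so the cell type could not be checked by transcript levels. The starts of 8 of 8 breast epithelial markers (KRT5, KRT14, KRT8, KRT18, EPCAM, CDH1, TP63 and ITGA6) lay outside domains in all 4 libraries, as did the starts of most autosomal protein-coding genes, so this says nothing of the cell type. Nothing states that the replicates were separate cultures, so the spread between them includes the difference between antibodies.

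No defensin gene started in an H3K9me3 domain. The count was 0 of 46 genes in each of the 4 libraries, where the share of all autosomal protein-coding genes with a start in a domain was 4.35% and 4.67% in the control libraries and 4.40% and 4.64% in the RAB5A libraries. A count of 0 of 46 allows a share of up to 6.52%, which lies above these background shares, so a deficit was not detectable with 46 genes. The genes also lie in clusters and are not independent of each other. No base of a defensin gene and no start of any of their annotated transcripts fell in a domain. The same held for every base of the cluster spans, where clusters are runs of members with starts at most 1 Mb apart. It also held for the starts of 23 annotated defensin pseudogenes, of which the nearest lay 160.8 kb from a domain in all 4 libraries.

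Near domains, the defensin genes formed 2 groups. In each of the 4 libraries, 4 of 46 genes (8.70%) started within 200 kb of a domain, namely DEFB115, DEFB116, DEFB118 and DEFB119, beside 5.94%, 6.05%, 6.0% and 6.10% of all autosomal protein-coding genes. Within 1 Mb the counts were 14, 14, 16 and 14 genes (30.4%, and 34.8% in RAB5A ab176916), beside 11.1%, 11.0%, 11.1% and 11.0% of all genes. The 14 were DEFB1, the 6 alpha defensin genes and the 7 beta defensin genes from DEFB115 to DEFB124. These 14 genes belong to only 2 clusters, so the difference from the background counts neighbours of 2 domains and not 14 separate events. Control held 14 ± 0 and RAB5A 15 ± 1.41 genes within 1 Mb (SD, n = 2 each), with p = 1 by a two-sided exact test over the 6 ways of labelling the libraries, whose smallest p is 0.333.

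**Figure D1:**
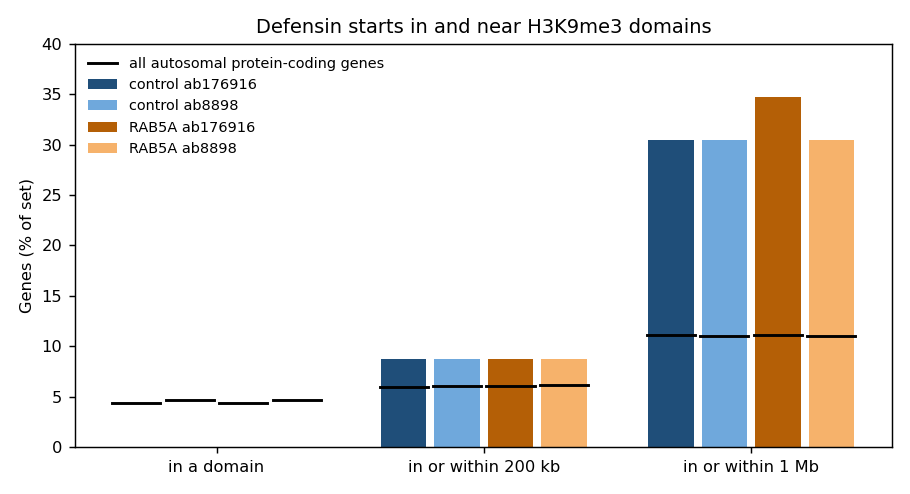
Share of the 46 defensin genes (bars, one per library) with a transcription start in a domain, in or within 200 kb of one, or in or within 1 Mb of one; black lines give the share of all 19111 autosomal protein-coding genes in the same library. The bars are at 0 for starts in a domain, at 8.70% in every library within 200 kb, and at 30.4% or 34.8% within 1 Mb, where the lines lie at 11.0% and 11.1%.

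The defensin genes nearest to a called H3K9me3 domain were the 7 beta defensin genes of the second cluster of chromosome 20 (chr20:31257664-31476757, 219 kb). This group includes DEFB118, which encodes a sperm-binding protein of the epididymis. All 4 libraries held the same domain beside the cluster, chr20:29400001-31200000, 1.8 Mb long. DEFB115 started 57.7 kb beyond its edge, DEFB116 108.6 kb, DEFB118 168.6 kb, DEFB119 190.6 kb, DEFB121 212.8 kb, DEFB123 240.6 kb and DEFB124 276.8 kb. Each of these distances was the same in the 4 libraries, so control and RAB5A overlapped completely and the difference was 0. No protein-coding gene started inside this domain or between it and DEFB115, which made DEFB115 the first protein-coding start past the domain. Among the 7 genes, only REM1, which encodes a small GTPase, interrupts the run. By the authors' score the domain stood in the middle of its list, at rank 47 of 78, 41 of 76, 49 of 79 and 45 of 76. As edges move in steps of 200 kb, 1 further bin would have taken in DEFB115, DEFB116, DEFB118 and DEFB119.

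The promoters of DEFB115 and DEFB118, inside that next bin, and of DEFB132 and DEFB114, far from any domain, are shown as examples. They do not stand for their clusters, and counts by cluster are given below. The examples are RefSeq sequences on GRCh38.p14 from 250 bases before to 50 after the start, 5′ to 3′ on the strand of the gene. Every CG dinucleotide and every TATAAA, or TTTATA where it is read on the other strand, is in capitals. DEFB115 covers chr20:31257414-31257713 (plus strand), DEFB118 chr20:31368351-31368650 (plus strand), DEFB132 chr20:257474-257773 (plus strand) and DEFB114 chr6:49964115-49964414 (minus strand).
DEFB115: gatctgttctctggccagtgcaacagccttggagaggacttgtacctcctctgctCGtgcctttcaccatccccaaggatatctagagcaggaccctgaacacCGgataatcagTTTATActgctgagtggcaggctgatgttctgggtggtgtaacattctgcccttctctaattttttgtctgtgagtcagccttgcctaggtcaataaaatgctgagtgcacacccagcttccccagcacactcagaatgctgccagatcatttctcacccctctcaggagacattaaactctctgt
DEFB118: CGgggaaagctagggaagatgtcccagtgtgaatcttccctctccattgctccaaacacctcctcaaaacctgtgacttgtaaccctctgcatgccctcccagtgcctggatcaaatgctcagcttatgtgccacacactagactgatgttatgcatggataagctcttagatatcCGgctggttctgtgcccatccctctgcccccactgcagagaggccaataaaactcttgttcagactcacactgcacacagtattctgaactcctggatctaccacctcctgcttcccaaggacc
DEFB132: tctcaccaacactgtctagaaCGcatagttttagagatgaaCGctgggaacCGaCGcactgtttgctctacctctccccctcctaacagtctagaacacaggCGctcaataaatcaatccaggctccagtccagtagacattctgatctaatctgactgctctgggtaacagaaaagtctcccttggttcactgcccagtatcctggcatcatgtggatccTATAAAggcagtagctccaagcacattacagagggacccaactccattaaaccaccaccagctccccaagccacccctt
DEFB114: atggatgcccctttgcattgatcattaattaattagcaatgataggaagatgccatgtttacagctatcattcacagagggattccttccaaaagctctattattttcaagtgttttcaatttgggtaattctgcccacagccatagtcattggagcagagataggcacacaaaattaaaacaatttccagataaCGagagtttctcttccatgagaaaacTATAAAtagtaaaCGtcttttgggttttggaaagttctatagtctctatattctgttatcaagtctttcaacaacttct
DEFB115 and DEFB118 held 2 CG dinucleotides each, DEFB132 held 5 and DEFB114 held 2. The GC content was 49.7% for DEFB115, 51.3% for DEFB118, 49.7% for DEFB132 and 35% for DEFB114. DEFB132 and DEFB114 had TATAAA on the strand of the gene, DEFB115 had TTTATA, and DEFB118 had neither in this window.

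A promoter was found for 18 of the 46 defensin genes and was not matched for the other 28. The 28 include all 26 genes of chromosome 8, with DEFB1, DEFB4A and the 6 alpha defensin genes. The promoter values below thus describe only beta defensin genes of chromosomes 4, 6, 11 and 20. Where a defensin gene had several listed promoters, the first was used, whereas the values over all promoters count every listed one. The median GC content of the 18 was 45% (34% to 57%), against 58.7% over 35116 promoters of the same length. The median number of CG dinucleotides was 2 (0 to 9), against 14 over all promoters, and DEFB123, in the cluster beside the domain, had the most with 9. TATAAA on either strand occurred in 8 of the 18 (44.4%), against 11.5% of all promoters. By cluster it occurred in 3 of 4 genes on chromosome 6, 1 of 6 in the first and 2 of 6 in the second cluster of chromosome 20. On chromosome 4 it occurred in 1 of 1 gene, and on chromosome 11 in 1 of 1 gene with a promoter. Counting every listed promoter, it occurred in 11 of 21 defensin promoters (52.4%) and in 9 of the 18 genes. In the second cluster of chromosome 20 it was then 3 of 6 genes, where another DEFB121 promoter (chr20:31406166-31406465) held it. Most of the 18 genes are cluster neighbours and are not independent of each other. Over all 46 members, the defensin genes were short and simple. Their median length was 3.92 kb (0.663 to 13.4 kb) against 27.9 kb for all autosomal protein-coding genes, and 38 of 46 (82.6%) had 2 exons against 6.99% of all genes.

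The other beta defensin cluster of chromosome 20 was remote from any called H3K9me3 domain although it is on the same chromosome. DEFB125, DEFB126, DEFB127, DEFB128, DEFB129 and DEFB132 occupy chr20:87250-261096 (174 kb), beginning 87.3 kb from the end of the short arm. DEFB126 encodes a glycoprotein that coats sperm. DEFB132 was the nearest to a domain at 29.1 Mb and DEFB125 the farthest at 29.3 Mb, in each of the 4 libraries. Their nearest domain was the one that lies beside DEFB115, with 180 protein-coding starts between. On the whole of chromosome 20, domains covered 5.6, 5.8, 5.6 and 5.8 Mb and held 8, 14, 8 and 14 of 546 protein-coding starts (1.47%, 2.56%, 1.47% and 2.56%). That difference followed the antibody, whereas the distances of the 13 defensin genes were the same with both.

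**Figure D2:**
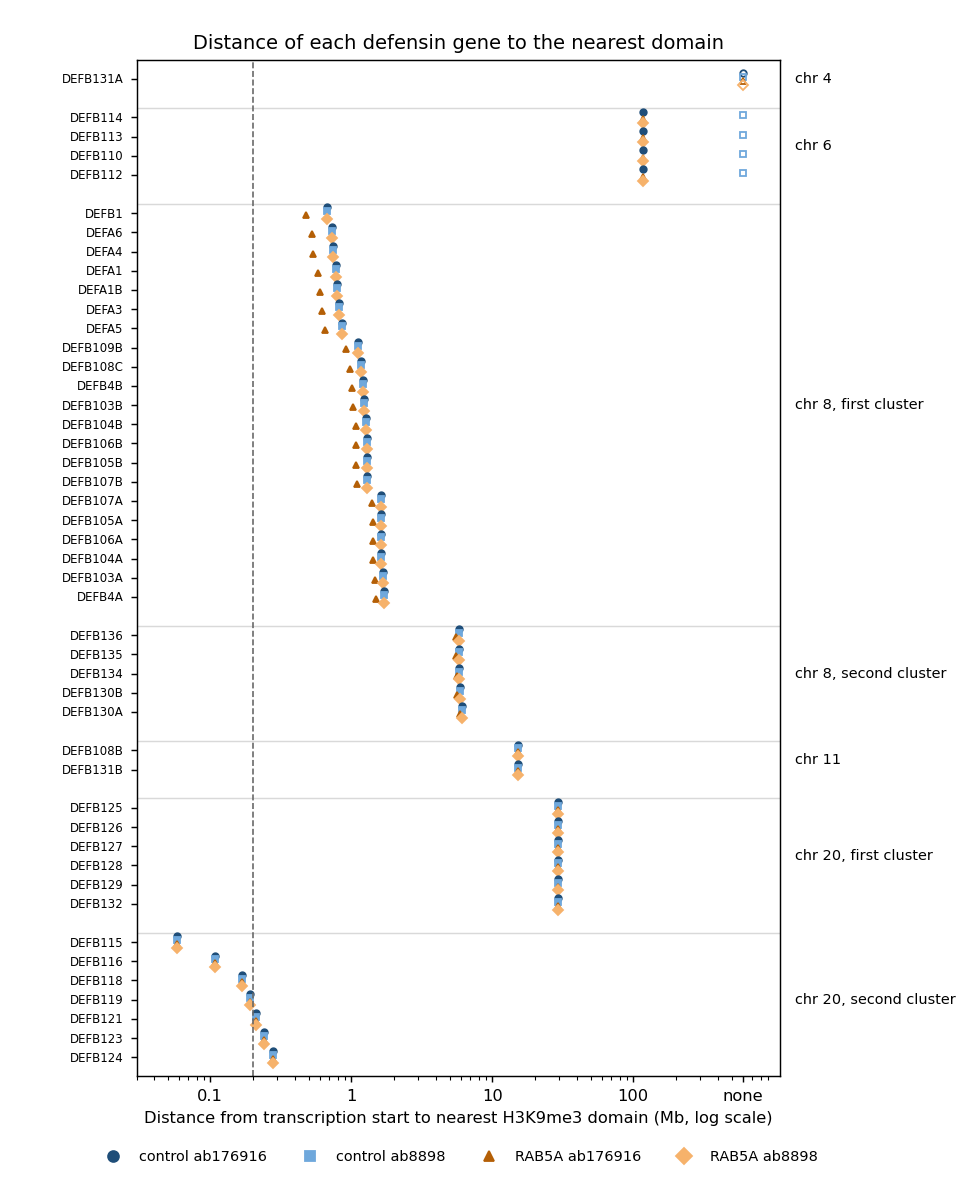
Distance in Mb, on a log scale, from the transcription start of each of the 46 defensin genes to the nearest H3K9me3 domain, with 1 symbol per library; the dashed line marks 200 kb and hollow symbols at "none" mark a chromosome without a domain in that library. Only DEFB115, DEFB116, DEFB118 and DEFB119 lie left of the line, and the RAB5A ab176916 triangles lie to the left of the other symbols for the genes of chromosome 8 alone.

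The first cluster of chromosome 8 (chr8:6870592-7896716, 1.03 Mb) held 21 defensin genes and 23 other protein-coding starts, of the FAM90A, USP17L, PRR23D and SPAG11 families and ZNF705G. Its distances differed between libraries. DEFB1, the constitutively expressed epithelial beta defensin, was nearest to a domain at 0.678 Mb in both control libraries, 0.478 Mb in RAB5A ab176916 and 0.678 Mb in RAB5A ab8898. The alpha defensin genes followed. DEFA6, made in Paneth cells, lay at 0.726, 0.726, 0.526 and 0.726 Mb, and DEFA4, a neutrophil defensin, at 0.738, 0.738, 0.538 and 0.738 Mb. The neutrophil genes DEFA1, DEFA1B and DEFA3 lay at 0.780, 0.799 and 0.818 Mb in 3 libraries and at 0.580, 0.599 and 0.618 Mb in RAB5A ab176916. DEFA5, the other Paneth cell gene, lay at 0.857 Mb in 3 libraries and 0.657 Mb in RAB5A ab176916. All 7 genes were 0.2 Mb, or 1 bin, closer in the same RAB5A library, and the other RAB5A library equalled the controls.

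The next 2 genes were those whose place within 1 Mb differed among libraries. DEFB109B lay at 1.11, 1.11, 0.913 and 1.11 Mb, and DEFB108C at 1.17, 1.17, 0.973 and 1.17 Mb. DEFB4A, which encodes the inducible epithelial peptide beta-defensin 2, was the farthest member at 1.69, 1.69, 1.49 and 1.69 Mb, and its copy DEFB4B lay at 1.22 Mb in the control libraries. The median distance over the 21 genes was 1.23 ± 0 Mb in control against 1.13 ± 0.141 Mb in RAB5A cells, a difference of -0.1 Mb (SD, n = 2 each; the same exact test, p = 1). This difference was smaller than the spread of the RAB5A libraries and rested on the RAB5A ab176916 library; without the ab176916 libraries it was 0.

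The domain beside this cluster ended at 6.2 Mb of chromosome 8 in both control libraries and in RAB5A ab8898, and at 6.4 Mb in RAB5A ab176916. It began at 2 Mb in 3 libraries, where it held the starts of MYOM2, a muscle protein, and CSMD1, a long gene for a membrane protein with complement-regulating domains. In control ab8898 it reached the end of the chromosome as a single 6.2 Mb domain with 12 protein-coding starts. The bins called in all 4 libraries before this cluster numbered 30, nearly as many as the 6.2 Mb domain holds at 200 kb each. Most of the stretch before 2 Mb was thus called in every library. Chromosome 8 held 2 domains in control ab8898 and 3 in each other library. The score of the domain beside the cluster ranked at 16 of 78, 11 of 76, 17 of 79 and 16 of 76. This was above the rank of the chromosome 20 domain in each library. The ranks were not adjusted for length, and this domain was longer, at 4.2, 6.2, 4.4 and 4.2 Mb against 1.8 Mb. They thus do not compare the strength of H3K9me3 beside the 2 clusters. Between its edge and DEFB1 lay 4 protein-coding starts in every library, MCPH1, ANGPT2, AGPAT5 and XKR5. The end of this domain that differed was thus the one facing the defensin genes in 1 library. In control ab8898 it was the one away from them, where the domain ran on into a stretch that was mostly called in every library.

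**Figure D3:**
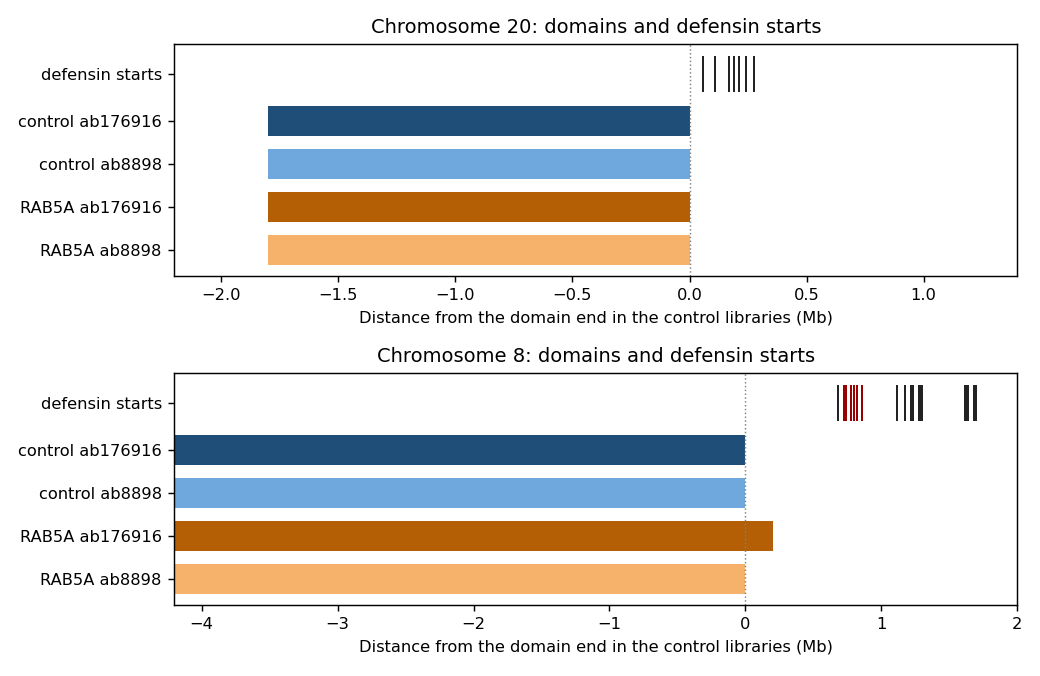
Domains (bars, one row per library) and defensin starts (ticks; black for beta and dark red for alpha defensins) along the distance in Mb from the domain end in the control libraries, for the second cluster of chromosome 20 (upper) and the first cluster of chromosome 8 (lower). The chromosome 20 bars end together 57.7 kb before the first tick, and the chromosome 8 bar of RAB5A ab176916 ends 0.2 Mb closer to the ticks than the other 3, still 0.478 Mb short of DEFB1.

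The second cluster of chromosome 8 (chr8:11973937-12318316, 344 kb) held DEFB136, DEFB135, DEFB134, DEFB130B and DEFB130A with 4 other protein-coding genes. DEFB136 was nearest, at 5.77 Mb in 3 libraries and 5.57 Mb in RAB5A ab176916, and DEFB130A was farthest at 6.12 Mb and 5.92 Mb. The reference was the same domain, with 77 protein-coding starts between. Domains covered 7.6, 7.4, 7.8 and 7.2 Mb of chromosome 8 and held 11, 12, 11 and 10 of 702 protein-coding starts (1.57%, 1.71%, 1.57% and 1.42%), so its 26 defensin genes are among a large majority outside domains.

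On chromosome 6 the 4 beta defensin genes DEFB114, DEFB113, DEFB110 and DEFB112 (chr6:49960249-50049929, 89.7 kb) had no protein-coding gene of another family among them. They were the farthest from a called H3K9me3 domain of all members with a distance, at 118 Mb in control ab176916 and in both RAB5A libraries. The domain reached from there, chr6:168000001-169600000, was the only one on the chromosome. Its scores were low, ranked 77 of 78, 73 of 79 and 70 of 76 in those libraries, without adjustment for its length of 1.6 Mb. It held 4 of 1051 protein-coding starts (0.381%), and 456 starts separated it from DEFB112. The control ab8898 list had no domain on chromosome 6, so the 4 genes had no distance there. The remaining members were DEFB108B and DEFB131B on chromosome 11 (chr11:71833200-71884561), at 15.2 and 15.3 Mb in each library, and DEFB131A on chromosome 4 (chr4:9444414-9450666), a chromosome without a domain in any library.

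Over all members with a distance, the median was 1.62, 1.29, 1.42 and 1.62 Mb (45, 41, 45 and 45 genes). All autosomal protein-coding genes had medians of 15.03, 13.4, 15.3 and 17.6 Mb. The defensin median lay below that of all genes in every library, and 21 of the genes with a distance share 1 cluster. RAB5A minus control was 0.0640 Mb, which was smaller than the SD of 0.232 Mb between the control libraries (n = 2 each; the same exact test, p = 1). This positive value depended on the chromosome 6 genes, which have no distance in control ab8898. Without them the medians were 1.29, 1.29, 1.09 and 1.29 Mb, and the difference was -0.1 Mb.

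The 3 chromosomes differed in how far their defensin genes can be read by unique alignment, measured as the share of 75-base windows in a 200 kb bin that occur once in hg38 on both strands. The authors removed reads of mapping quality below 1, which acts on reads that align equally well to several places. The share was 99.4% on chromosome 6, 96.8% in the first and 92.5% in the second cluster of chromosome 20, against 93.9% over all of chromosome 20. Windows with undetermined bases (N) were not counted. Determined bases made up 84.8% of the bins of the first cluster of chromosome 20, 91.7% of those of the second cluster of chromosome 8 and 86.8% of the domain beside DEFB115. In that domain the unique share was 76.3% (50.7% to 86.7% by bin). A domain was thus called there over sequence with fewer unique windows than the cluster next to it.

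On chromosome 8 the order was the opposite. The bins called in all 4 libraries before the first cluster, out to the end of the short arm, had 92.2% unique windows (13.3% to 99.8% by bin) and the bins between the domain and the cluster 98.4%. The share was 76.5% in the 2 bins of DEFB1 and the alpha defensins (85.8% and 67.2%) and 21.9% in the 3 bins of the other beta defensins (18.0% to 24.2%). In the second cluster of chromosome 8 it was 57.5% (28.3% to 98.2%). Many of the copied genes lie in the bins of low values, but DEFA1 and DEFA1B lie in the bin with 85.8%. DEFB109B and DEFB108C, which are in none of the pairs compared here, lie in the bin with 24.2%. Of 7 pairs of chromosome 8 genes that differ only in a final A or B, 6 had 97.9% to 100% identical sequence over the shorter gene, and DEFB103A and DEFB103B, which encode beta-defensin 3, were identical. The remaining pair, DEFB107A and DEFB107B, was 73.9% identical as annotated. DEFA1 was 99.7% identical to DEFA1B and 98.9% to DEFA3, whereas DEFB131A and DEFB131B, on different chromosomes, were 94.0% identical. Absence of a domain over the beta defensins of this cluster thus rests on few unique windows, and the part of this in the calls was not tested. The GC content of the bins was 35.1% for chromosome 6, 44.7% for the first cluster of chromosome 8 and 43.7% for the second cluster of chromosome 20, beside 41.0% for all autosomal bins.

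**Figure D4:**
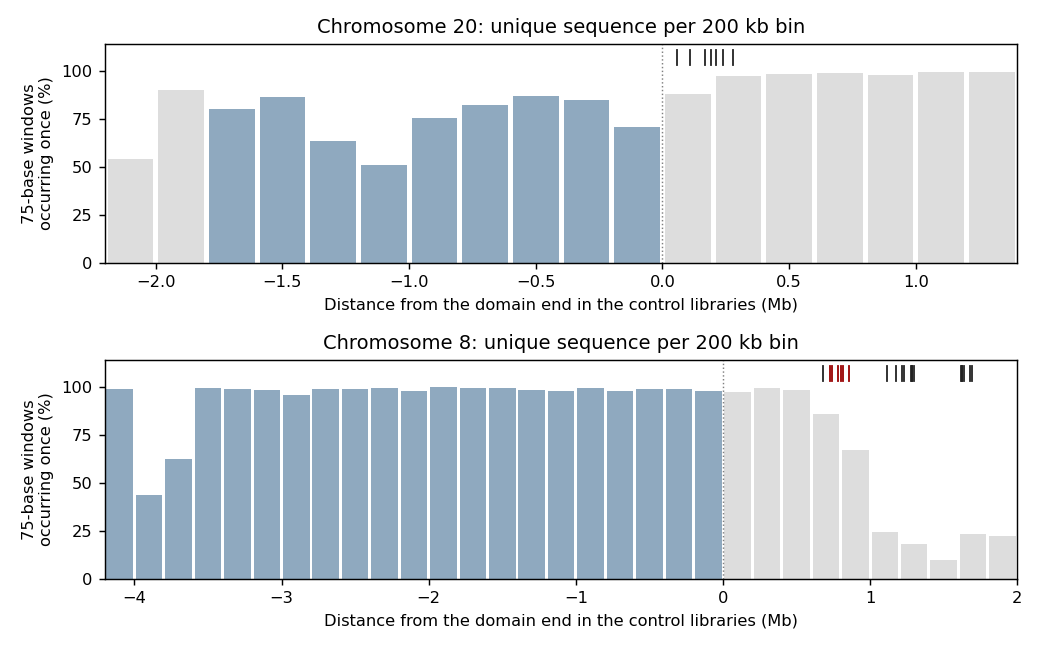
Share of 75-base windows that occur once in hg38 (%, bars of 200 kb) against the distance in Mb from the domain end in the control libraries, for chromosome 20 (upper) and chromosome 8 (lower); blue bars lie in a domain in all 4 libraries and ticks mark defensin starts (dark red for alpha). On chromosome 20 the bars of the domain are lower (76.3% together) than those of the cluster (92.5%), and on chromosome 8 they fall from 98.4% between domain and cluster to 21.9% under the beta defensins past the alpha defensins.

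Other genes of antimicrobial defence were read the same way from lists of 57 genes, all found in the annotation. In each of the 4 libraries 2 of 57 (3.51%) started in a domain, which is near the background of 4.35% to 4.67%. Both were intestinal C-type lectins of chromosome 2, REG3G and REG3A. None of the 2 defensin-like SPAG11 genes, 10 BPI fold genes (bactericidal and lipid-binding proteins), 14 WAP genes (protease inhibitors such as SLPI) and 7 receptors and sensors did. SPAG11B and SPAG11A, which lie among the beta defensins of chromosome 8, were 1.26 and 1.65 Mb from a domain in 3 libraries and 1.06 and 1.45 Mb in RAB5A ab176916. CCR6, a chemokine receptor that beta defensins can engage, started 0.888 Mb from the chromosome 6 domain in the 3 libraries that have it, and HAMP, which encodes hepcidin, 0.919 Mb from a domain in all 4.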

How the data were processed

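H3K9me3 ChIP-seq libraries were made with 2 antibodies from control and RAB5A cells. The authors trimmed reads with Trimmomatic 0.39, aligned them to hg38 with BWA 0.7.17-r1188, marked duplicates with Picard 2.22, filtered on a mapping quality of at least 1 with SAMtools 1.9 and called domains per library against input with EDD, with 200 kb bins, an informative fraction of 0.98, a gap penalty of 25 and an exclusion list. The deposited lists give positions and the authors' score, which has no stated unit. The score was used only to rank and filter domains within a list and was not adjusted for domain length. The lists give no depth per library, which was not used here, and do not show signal that fell short of a call.

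Gene starts were the 5′ ends of GENCODE 44 genes. Distances ran to the nearest domain edge of the chromosome, and clusters were runs of starts at most 1 Mb apart. Windows of 75 bases and gene copies (aligned with edlib 1.3.9.post1) were compared on hg38 with Python 3.11.15, NumPy 2.4.6, SciPy 1.17.1 and Numba 0.67.0, and the window and domain steps were tested on simulated data. Control and RAB5A were compared by enumerating all 6 labellings of the libraries (exact permutation test, two-sided). Members and lists were chosen with earlier results of these data known. Values are given for members whose call differed among libraries, those within 1 Mb of a domain and the nearest and farthest of each cluster; other genes are named where they lie in or bound a domain or a cluster, or are list members in a domain, and DEFB4B, SPAG11A, SPAG11B, HAMP and CCR6 were added after their values were seen. The replicate number is the antibody, and libraries of an antibody were paired in an alternative. Over 41 members with a distance in every library, the control libraries were identical (deviation 0) and 26 members deviated by 0.1 Mb in RAB5A, so no correlation of deviations could be computed. Alternatives counted any base, any transcript start or starts within 200 kb, and used score and length filters, domains merged across 400 kb, copies counted once, other cluster gaps and each antibody left out.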

Additional observations from a re-analysis of the deposited data

Results flagged for a closer look

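The change in the median distance from a defensin start to the nearest domain, RAB5A minus control, had opposite signs with the 2 antibodies. It was -0.2 Mb with ab176916, where the median went from 1.62 to 1.42 Mb, and 0.328 Mb with ab8898, where it went from 1.29 to 1.62 Mb. With 1 library per condition and antibody, this difference between antibodies was not tested. With ab176916, the 26 genes of chromosome 8 were 0.2 Mb closer in RAB5A cells and no other member moved. With ab8898, no member that had a distance in both libraries moved, and 4 more genes, those of chromosome 6, had a distance in RAB5A cells (45 against 41 genes).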

How the results depend on the processing

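For 8 results, 68 alternatives were computed, of which 58 kept the value within the spread between libraries and its direction. Among the 58 are alternatives that could not change a value of 0, so this number is not a measure of robustness. The count of 0 starts in domains held with any base of a gene, any transcript start and merged domains. It was also 0 with the score filter, domains of at least 1 Mb, copies counted once and either antibody left out. These only remove domains, genes or libraries, so they could not raise a count of 0. The count became 4 genes per library, and 4 on chromosome 20, when starts within 200 kb counted. The mean median distance over the 4 libraries, 1.48 ± 0.161 Mb (SD), became 1.24 Mb with the score filter, 1.21 Mb with copies counted once and 1.24 Mb without the chromosome 6 genes, an alternative chosen after seeing the data. RAB5A minus control in this median changed from 0.0640 Mb to -0.1 Mb with the score filter, -0.0709 Mb with copies counted once and -0.1 Mb without the chromosome 6 genes. The score filter removed the chromosome 6 domain, and for the copies the cause was not tested. It ranged from -0.2 to 0.328 Mb with 1 antibody left out. With the replicate block, paired by antibody, it was 0.0640 Mb (exact sign-flip test over 2 pairs, p = 1, smallest possible 0.5), and the block changed no other call. Positions are limited to bins of 200 kb and to calls without read depth, so a weaker signal over defensin genes would not be seen.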
